A study of Mus musculus with 15 samples.

Results

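The transcriptome of cutaneous sensory neurons was described here in its uninjured state, from the 5 naïve libraries of a set of 15. The members were all libraries that the labels call naïve, and every gene was read in them. The study compared spinal cord injury with sham surgery and with naïve mice, in neurons that project to the hindpaw skin. Only the naïve mice are described below, so no groups are compared. They were adult female C57BL/6J mice, without surgery or injury, and were caged in groups. Wheat germ agglutinin coupled to a green dye was injected into the hairy skin of both hindpaws, from where afferent terminals carry it to the cell body. Lumbar dorsal root ganglia of both sides were pooled and dissociated, and single live, labeled cells of small size were sorted, about 3000 per sample. Each mouse gave 1 library of polyadenylated RNA, so a value is a mean over many cells of several kinds. A lower value from fewer cells of a kind cannot be told apart from one with less RNA per cell.

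Cutaneous afferents have their cell bodies in the dorsal root ganglia and send an axon to the skin and another into the spinal cord. Those with small cell bodies are mostly nociceptors and C fibers, which carry pain, heat, cold, itch and some forms of touch. They convert a stimulus into current with ion channels in the skin, are tuned by receptors for inflammatory mediators and growth factors, and release glutamate and neuropeptides at both ends of the axon. Each cell body is wrapped by satellite glia, and its axon runs beside Schwann cells.

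The libraries held 1321632 to 7465583 counted reads (median 2532675), a 5.65-fold range, with naïve 1 and naïve 4 the shallowest and naïve 5 the deepest. Levels are given on 2 scales. CPM is the deposited value, a whole number of reads multiplied by 1 constant per library and not divided by gene length. TPM divides the same reads by the length of all annotated exons of a gene, so levels of different genes are compared only in TPM. A gene is counted as expressed here at a mean of at least 1 CPM over the 5 mice. By this measure 15753 of 54108 genes were expressed, among them 13813 of 21844 protein-coding genes (63.2%), 460 antisense genes and 419 long intergenic RNAs. A mean of at least 10 CPM was reached by 50.8% of protein-coding genes and a mean of at least 100 CPM by 14.8%. Expressed protein-coding genes of at least 500 exonic bases had a median of 40.7 TPM. The libraries resembled each other, with pairwise correlations of 0.917 to 0.974 across genes on a log2 scale of CPM plus 1, where genes are not independent replicates.

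In the most abundant short transcripts, the level was lower where the library was deeper. Prph, which encodes the intermediate filament peripherin of small sensory neurons, had 1063, 1301, 1227, 1104 and 1722 reads in naïve 1 to naïve 5. Sncg, the gene of gamma-synuclein, had 493, 600, 548, 523 and 713 reads. Between the shallowest and the deepest library, reads of Prph therefore differed by 1.62-fold and those of Sncg by 1.45-fold, while the libraries differed by 5.65-fold. For Dst, a long cytoskeletal linker gene, the fold was 4.44. Over protein-coding genes with at least 200 reads, the median fold was 10.1 in the eighth with the lowest TPM and 3.85 in the eighth with the highest. No protein-coding gene of at least 500 exonic bases had more than 1 read per exonic base in any library. The highest was the mitochondrial gene mt-Cytb, with 0.635 to 0.891 reads per base. Levels of the most abundant short genes were thus higher in naïve 1 and naïve 4 and lower in naïve 5, and their fold over other genes was smaller in the deeper libraries. How duplicate reads were treated is not given in the sources used here, and its part in this pattern was not tested.

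**Figure D1:**
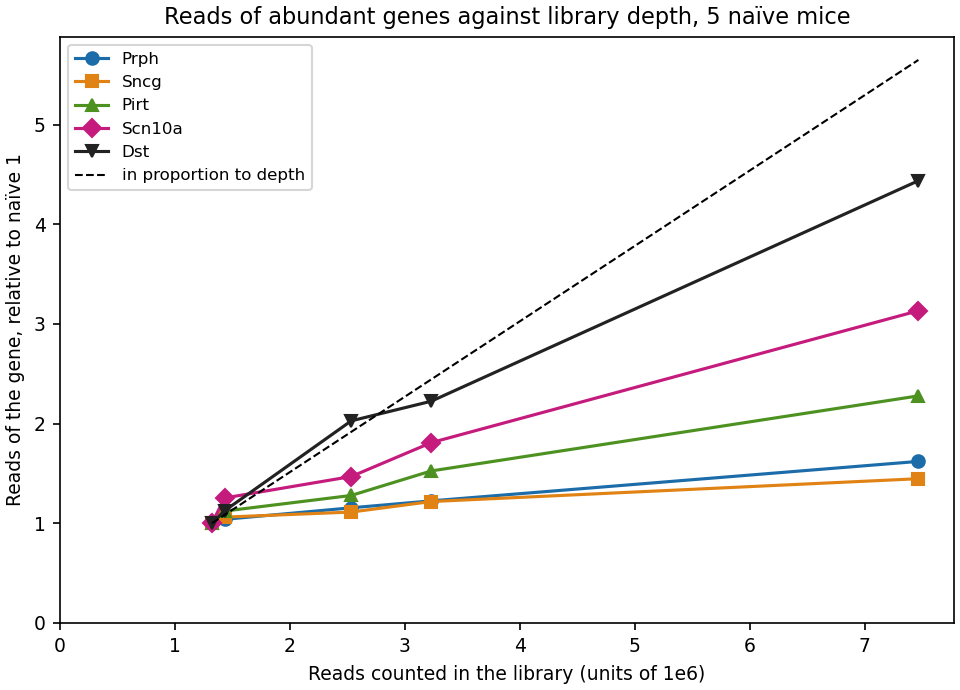
Reads of 5 abundant genes in each naïve library, relative to naïve 1, against the reads counted in the library. The dashed line is growth in proportion to depth, and Sncg and Prph, at 1.45 and 1.62 in naïve 5, stay furthest below it while Dst reaches 4.44.

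The 4 nociceptor markers were abundant in every mouse. Scn10a, a voltage-gated sodium channel of nociceptors that resists tetrodotoxin, had 1154, 856, 886, 1336 and 642 CPM in naïve 1 to naïve 5. Trpv1, the heat- and capsaicin-gated channel, had 432, 337, 392, 531 and 293 CPM. Pirt, a membrane protein of nociceptors that binds this channel, had 1048, 656, 701, 1087 and 425 CPM. Prph had 841, 422, 507, 807 and 242 CPM. All 4 were lowest in naïve 5, and naïve 1 and naïve 4 held the highest values of each. Per length, Prph reached 1224 ± 516 TPM (SD, n = 5), Pirt 812 ± 262 TPM, Scn10a 534 ± 129.9 TPM and Trpv1 472 ± 93.6 TPM. Among 21439 ranked protein-coding genes, Prph stood at 2 to 4 by TPM in the single libraries, Pirt at 10 to 26, Scn10a at 58 to 116 and Trpv1 at 62 to 193.

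The promoter windows of 3 of these markers, from RefSeq on GRCm38.p6, are shown because their transcripts identify the sorted cells; no window was matched for Pirt. Each runs from 250 bases before the annotated start to 50 bases after it, and capitals mark matches on either strand to TATAAA, to GGGCGG or to CCAAT, of which none overlapped.
Prph (chr15:99054924-99055223, plus strand): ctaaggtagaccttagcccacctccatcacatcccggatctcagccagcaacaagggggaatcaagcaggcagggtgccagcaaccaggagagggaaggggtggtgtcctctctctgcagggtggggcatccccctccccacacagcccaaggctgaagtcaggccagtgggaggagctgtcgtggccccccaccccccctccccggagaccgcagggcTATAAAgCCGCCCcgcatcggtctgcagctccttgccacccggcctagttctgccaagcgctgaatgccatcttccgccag
Trpv1 (chr11:73233899-73234198, plus strand): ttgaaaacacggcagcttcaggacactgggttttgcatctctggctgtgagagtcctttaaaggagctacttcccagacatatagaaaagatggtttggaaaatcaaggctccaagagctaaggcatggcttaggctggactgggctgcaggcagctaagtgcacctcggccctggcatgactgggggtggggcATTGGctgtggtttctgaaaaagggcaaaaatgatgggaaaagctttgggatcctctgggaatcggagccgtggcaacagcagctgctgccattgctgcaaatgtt
Scn10a (chr9:119718983-119719282, minus strand): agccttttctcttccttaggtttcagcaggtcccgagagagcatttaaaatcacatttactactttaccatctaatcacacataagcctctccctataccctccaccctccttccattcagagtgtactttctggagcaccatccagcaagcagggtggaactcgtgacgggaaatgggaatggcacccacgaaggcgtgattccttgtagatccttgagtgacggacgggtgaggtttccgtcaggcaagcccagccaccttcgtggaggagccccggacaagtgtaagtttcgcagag
The Prph window held TATAAA beginning 31 bases before the start and a reverse match to GGGCGG 24 bases before it. The Trpv1 window held a reverse match to CCAAT 56 bases before the start, and none of the 3 letter strings occurs in the Scn10a window. TATAAA was found in 12% of the windows of the 100 genes with the highest TPM, in 6.77% of those of 10698 other expressed genes and in 28.5% of those of 3545 genes without a read in any naïve library. GGGCGG was found in 63%, 64.2% and 10.1% of the same 3 sets. CCAAT was found in 33%, 38.6% and 40.9%. Over all 16425 protein-coding windows, the shares were 12.9% for TATAAA, 47.98% for GGGCGG and 38.8% for CCAAT. The strings GGGCGG and TATAAA thus differed in share between genes with and without reads, in opposite directions, and this was not tested.

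Markers of other cells were read beside those of nociceptors. All 12 markers of myelinated mechanoreceptors and proprioceptors had a mean of at least 1 CPM, but their levels were spread widely. Of these 12, 8 reached 10 CPM and 5 reached 100 CPM, and the list summed to 772 to 1172 CPM per mouse. The 5 were Nefh, Cntnap2, Ldb2, Ntrk3 and Etv1, with means of 261, 198, 173, 160 and 101 CPM. Nefh, the heavy neurofilament, reached 287 TPM per length, while Pvalb, the calcium buffer parvalbumin, had 20.4 TPM and Runx3, a factor of proprioceptors, 1.5 TPM. The 7 markers of C-fiber low-threshold mechanoreceptors were all expressed, with a summed level of 998 to 1343 CPM per mouse. Piezo2 and Gfra2 gave the largest parts of this sum, with means of 542 and 219 CPM. Slc17a8 and Fam19a4 gave the smallest, with means of 41.6 and 52.3 CPM. These parts are not divided by length, and the annotated exons of Piezo2 span 17162 bases against 2364 for Th. Per length the highest were Gfra2, Th and then Piezo2. Among the 7, Th, tyrosine hydroxylase, had 186, 102, 80.2, 32.9 and 95.7 CPM in naïve 1 to naïve 5. It was highest in naïve 1 and lowest in naïve 4. Piezo2, the mechanically gated channel of touch, had 585, 528, 479, 574 and 546 CPM.

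Glial transcripts were also abundant. Of 12 satellite glia markers, 11 were expressed and summed to 1921 to 4145 CPM per mouse, highest in naïve 1 and lowest in naïve 5. Apoe, an apolipoprotein, had 804, 389.9, 472, 727 and 189 CPM in naïve 1 to naïve 5, and Sox10, the glial transcription factor, had 245, 272, 326, 234 and 184 CPM. Gfap, the glial filament, was near the floor with 9 reads in all libraries together. All 11 Schwann cell markers were expressed, with a sum of 1703 to 3448 CPM. Apoe was again highest in naïve 1 and naïve 4 and lowest in naïve 5. Per length, Apoe averaged 1047 TPM, beside 1224 TPM for Prph. The part of glial cells in the levels below was not tested, and a gene that both glia and neurons use cannot be assigned to either in these libraries.

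Markers of other cell types were uneven. The 10 macrophage markers had a median of 3.74 CPM and summed to 20.4 to 195 CPM. Lyz2, the macrophage lysozyme, had 149, 5.19, 9.1, 13.9 and 1.97 CPM, so naïve 1 stood far above the others. Cd68 and Ptprc, also of macrophages and other leukocytes, and Il1b, a cytokine that macrophages make, were highest in the same mouse, Il1b with 19.8, 2.27, 0.827, 5.12 and 0.844 CPM. The list did not move as one: 4 of its 10 members were highest in naïve 1, 4 in naïve 4, among them C1qa, C1qb and C1qc of the complement complex, and 1 each in naïve 3 and naïve 5. Of 8 endothelial markers, 5 reached 1 CPM, and Cldn5, the tight junction claudin of vessels, had 0.0827 CPM. None of the 5 erythrocyte markers reached 1 CPM, and 2 had no read. All 10 fibroblast and mural markers were expressed, with a sum of 734 to 2109 CPM, highest in naïve 4. That maximum came from both chains of type I collagen, Col1a1 with 22.9, 25.3, 22.3, 859 and 69.7 CPM and Col1a2, given with the spread between mice. The other 8 markers summed to 511, 529, 577, 479 and 530.2 CPM, lowest in naïve 4.

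**Figure D2:**
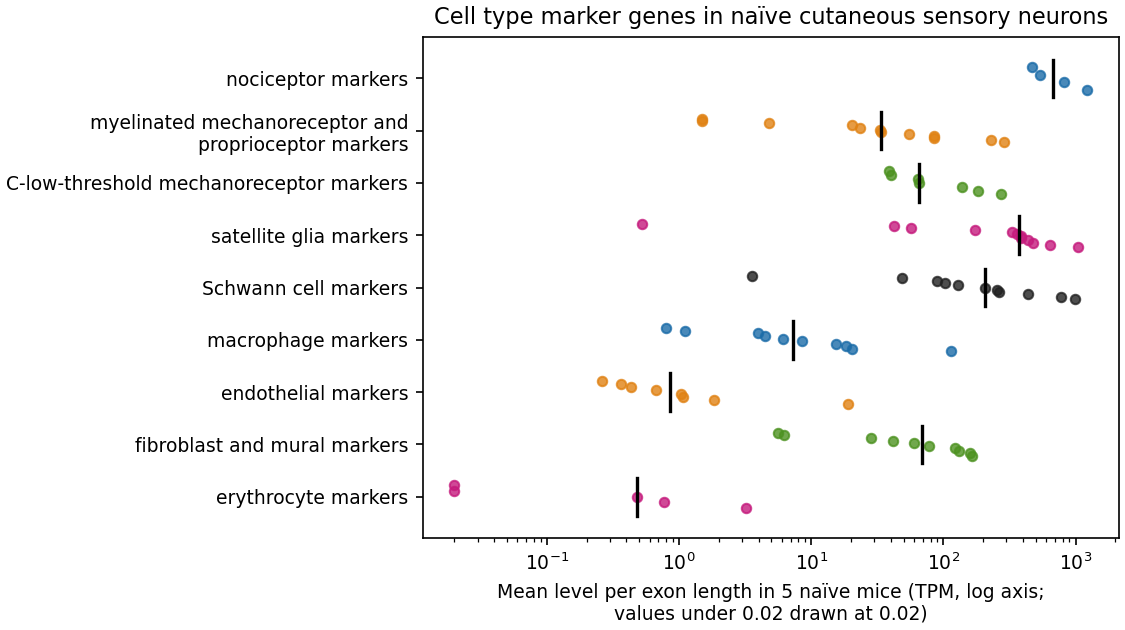
Mean level per exon length over the 5 naïve mice (TPM, log axis) of each gene in 9 lists of cell type markers, with each list's median as a bar. The nociceptor markers lie highest, with a median of 673 TPM, satellite glia and Schwann cell markers follow at 375 and 206 TPM, and endothelial and erythrocyte markers lie lowest, at 0.852 and 0.482 TPM.

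The highest levels per length belonged to mitochondrial, cytoskeletal and secretory genes. Of the protein-coding genes with the 25 highest means, mt-Cytb, mt-Nd1, mt-Nd2, mt-Nd5, mt-Nd6 and mt-Co1 are encoded by the mitochondrial genome. mt-Cytb led with 1451 ± 628 TPM (SD, n = 5) and ranked first in every library. Reads on mitochondrial genes made up 0.323%, 0.182%, 0.221%, 0.306% and 0.0922% of naïve 1 to naïve 5, less the deeper the library. Reads of mt-Cytb differed by 1.39-fold between the shallowest and the deepest library, while the libraries differed by 5.65-fold. The levels of the highest genes and this share thus also reflect depth. Among nuclear genes, Sncg had 1316 ± 595 TPM, Prph 1224 ± 516 TPM and Tubb3, the neuronal beta tubulin, 1122 ± 482 TPM. Hsp90ab1, a chaperone, Apoe and Psap, the precursor of the saposins of lysosomes, had 1069 TPM, 1047 TPM and 956 TPM. Scd2, a fatty acid desaturase, and Calca, which encodes the vasodilator peptide CGRP, had 922 TPM and 912 TPM. The elongation factors Eef2 and Eef1a2 had 853 TPM and 837 TPM, Fos, an immediate early gene, 816 TPM, and Mapk3, the kinase ERK, 814 TPM. Also among the 25 were Pirt, the granin Scg2 at 806 TPM, Anxa5, a calcium-dependent lipid binding protein, at 798 TPM, Uchl1, a neuronal ubiquitin hydrolase, at 797 TPM and B2m, the light chain of class I antigen presentation, at 802 TPM. B2m ranked 13 to 117 in the single libraries and Anxa5 20 to 29. The short features Gm23935 and Mir5125, annotated as miRNA, span 57 and 79 bases, about the length of a read or less, so their TPM were not ranked.

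Read numbers without division by length gave another order, led by long genes of the axonal skeleton and transport. Map1b, a microtubule-associated protein, had 24144 reads over the 5 libraries and 2447, 1681, 1771, 2446 and 1158 CPM in naïve 1 to naïve 5. Dst followed with 22478 reads, then Prune2 with 21454, Dync1h1, the heavy chain of cytoplasmic dynein, with 19653 and Map1a with 18049. Dgkh, a diacylglycerol kinase, had 17201, Ank2, an ankyrin, 16998, the axonal kinesins Kif1a and Kif1b 16837 and 16593, and Sptbn1, a spectrin, 15976. Their exons are long, so that Map1b had 523 TPM and Dst 168 TPM, both below Prph.

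Members of 5 gene classes were then read from 55 lists. Enzymes were expressed in the largest share, 318 of 339 members (93.8%), and secreted proteins in the smallest, 174 of 227 (76.7%). Transporters lay at 114 of 127 (89.8%), transcription factors at 238 of 267 (89.1%) and receptors at 224 of 254 (88.2%). All 5 shares exceeded the 63.2% of all protein-coding genes, but the lists were written from genes known in nerve tissue, so nothing is read from that. A mean of at least 100 CPM was reached by 42.8% of enzymes, 37.01% of transporters, 21.7% of transcription factors, 20.1% of receptors and 18.5% of secreted proteins. Per length, the class medians were 71.2 TPM for enzymes, 47.7 for transporters, 38.5 for transcription factors, 23.3 for receptors and 14.7 for secreted proteins.

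**Figure D3:**
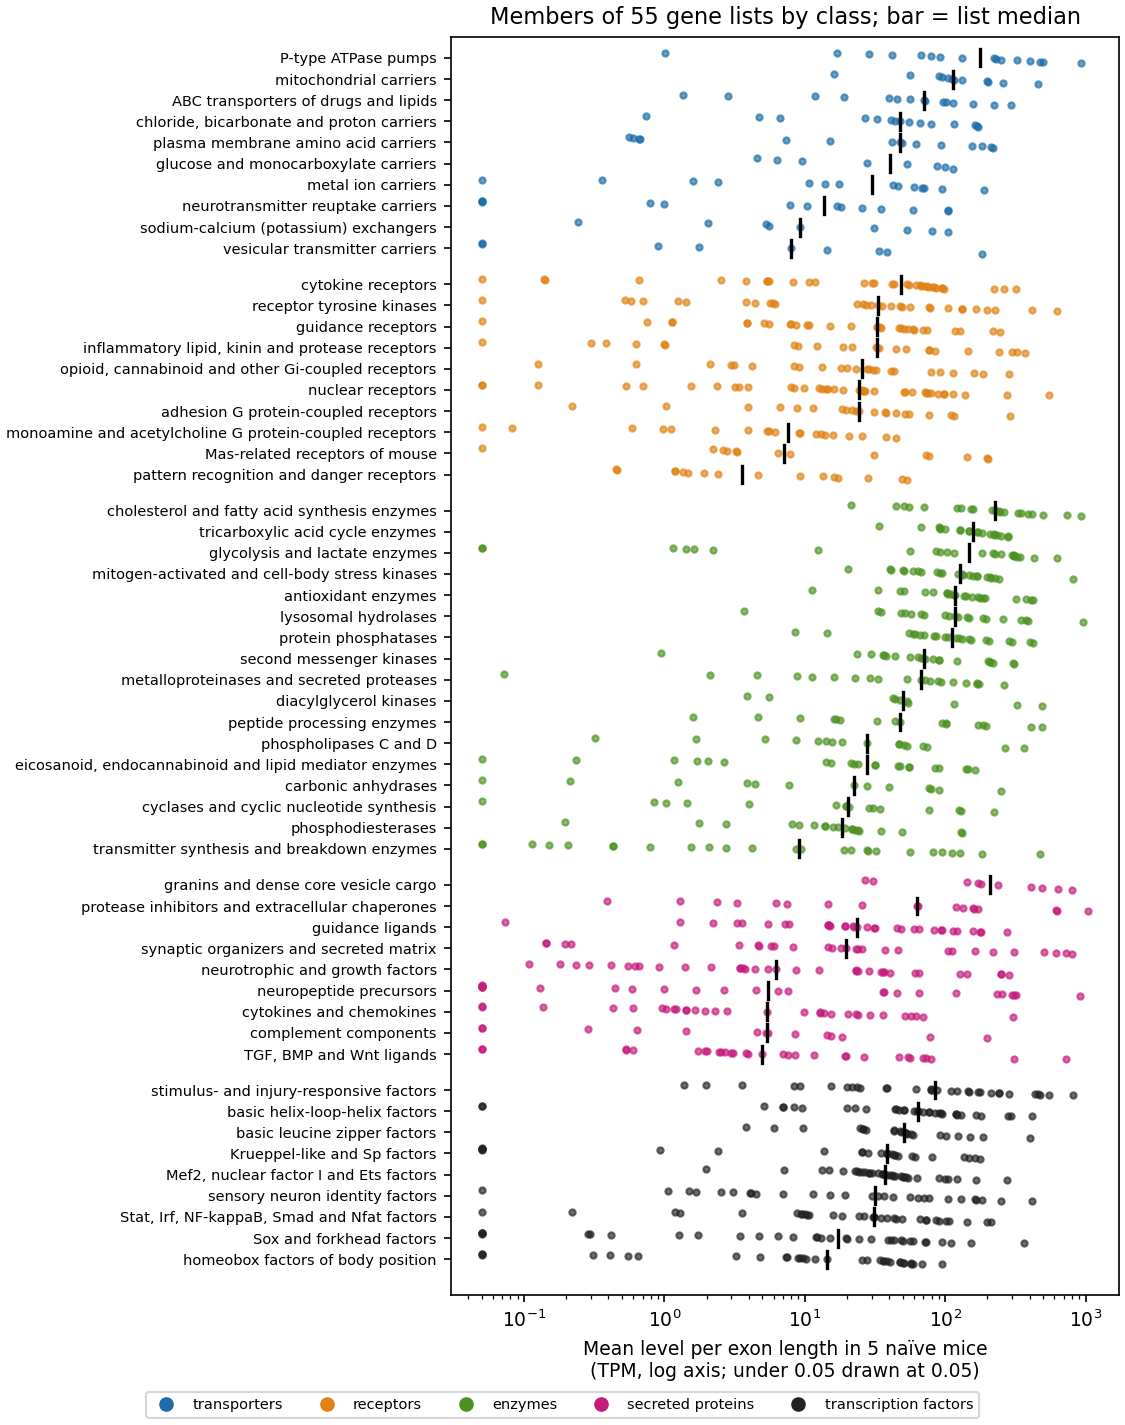
Mean level per exon length (TPM, log axis) over the 5 naïve mice of every member of 55 lists, grouped by class, with the list median as a bar. The lists with the highest medians are the cholesterol and fatty acid synthesis enzymes at 228 TPM and the granins and dense core vesicle cargo at 209.6 TPM, and the lowest is that of pattern recognition receptors at 3.55 TPM.

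The P-type ATPase pumps, which move ions at the cost of ATP, had the highest median of the transporter lists. They had 15 of 16 members expressed, with a median of 177 TPM. In 2 groups of calcium pumps, the share of each member in the summed TPM of its group was computed per mouse. In the endoplasmic reticulum, Atp2a2 held 89.3% (lowest 84.98%, highest 93.4%) of the calcium pump transcript, and Atp2a1, the muscle form, had 14 reads in all. At the plasma membrane, Atp2b4 led with 39.9% (lowest 35.6%, highest 44.7%) per exon length, but Atp2b1 led when the longest transcript was used as the length.

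Slc17a6 led the vesicular glutamate transporters, which fill synaptic vesicles. It had 249.9, 225, 192, 264 and 203 CPM in naïve 1 to naïve 5, against 61.7, 37.95, 35.6, 22.7 and 50.2 CPM for Slc17a8 and 1.58, 42.2, 0, 14.6 and 27.98 CPM for Slc17a7. Slc17a6 was high in all mice, whereas Slc17a7, the form of large mechanosensitive afferents, had no read in naïve 3 and 42.2 CPM in naïve 2. Slc17a6 held 77.9% (lowest 70.4%, highest 86.7%) of the group's TPM. The vesicular carriers of acetylcholine, Slc18a3, and of GABA, Slc32a1, had no read. Of the reuptake list, 9 of 14 were expressed. Its highest members were the neuronal amino acid carriers Slc6a17, at 105 TPM, and Slc6a15, at 105 TPM. The transporters of noradrenaline, dopamine and glycine, Slc6a2, Slc6a3 and Slc6a5, had no read, and that of serotonin, Slc6a4, had 0.847 CPM.

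Chloride uptake and extrusion carriers differed widely in level. Slc12a2, which brings chloride into the cell, had 439.6, 417, 540.4, 341 and 302 CPM in naïve 1 to naïve 5. Slc12a5, the neuronal chloride extruder of the central nervous system, had 0.791, 1.95, 2.07, 0 and 1.41 CPM, only 22 reads in all. Per length, Slc12a5 averaged 0.745 TPM, against 164 TPM for Slc12a2. Slc4a4, a sodium bicarbonate carrier, had 169 TPM.

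Among nutrient carriers, several were present side by side. Slc2a1 and Slc2a3, the glucose carriers of glia and vessels and of neurons, had 113 TPM and 100.002 TPM and changed order between mice. Slc2a4, the insulin-responsive carrier of muscle and fat, had 4.55 TPM. Slc3a2, the shared heavy chain of several amino acid carriers, led its list at 219 TPM, followed by Slc1a4 at 213 TPM, Slc1a5 at 182 TPM and Slc38a2 at 155 TPM. All 12 mitochondrial carriers were expressed. The highest was Slc25a4, which exchanges ADP and ATP across the inner membrane, with 366, 214, 222, 316 and 129 CPM. Abca7 and Abca2, lipid transporters, led the ABC list at 295 TPM and 224 TPM, and Abcb1a, the drug pump of the blood-brain barrier, had 2.82 TPM. Abca2 was even between mice, with 436, 404, 429, 449 and 409 CPM. Of zinc, copper and iron carriers, 12 of 14 were expressed, led by the zinc importer Slc39a6 at 189 TPM. Among sodium-calcium exchangers, Slc24a2 had 105 TPM, Slc24a3 81.02 TPM and Slc8a2 31.3 TPM, while Slc8a1, the cardiac form, had 2.06 TPM.

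**Figure D4:**
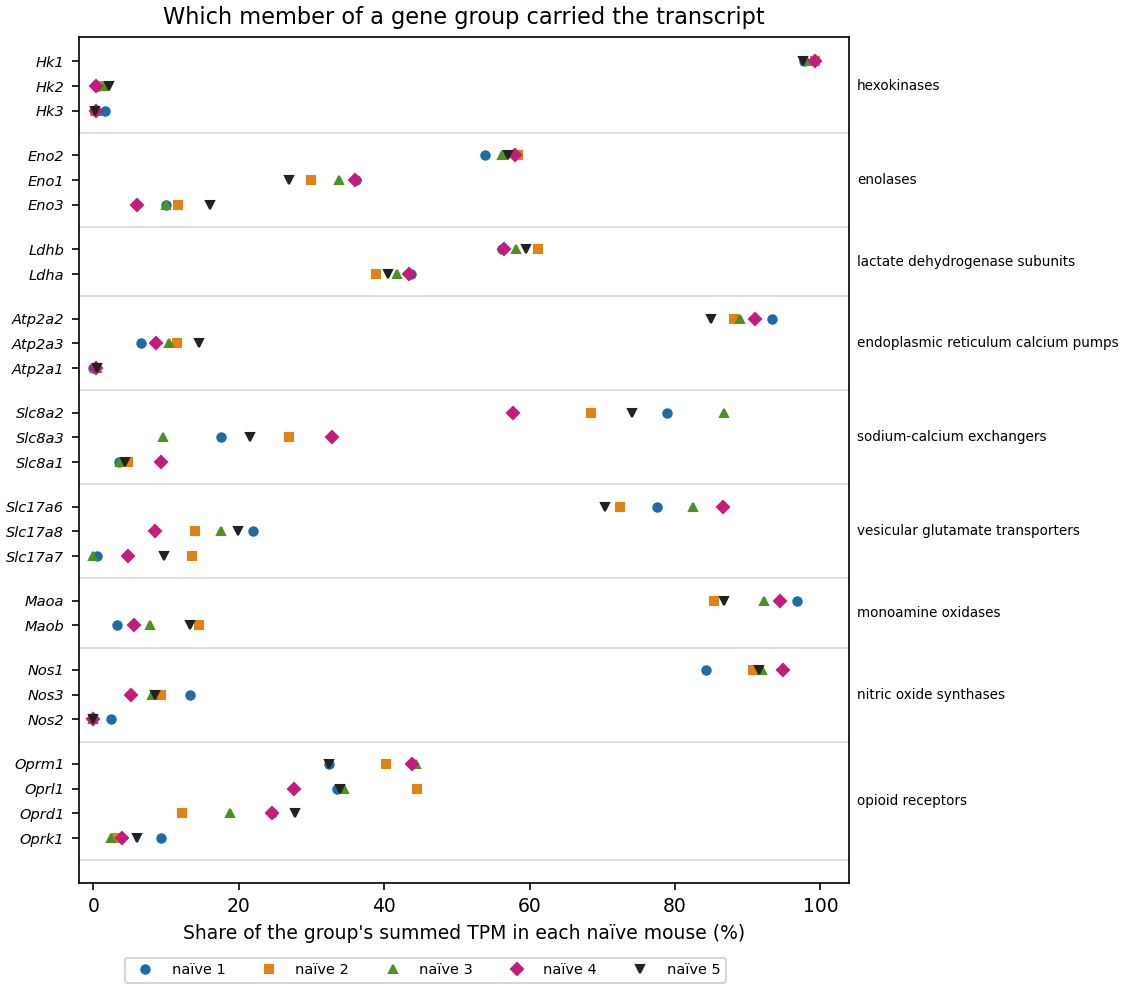
Share (%) of the summed TPM of 9 gene groups held by each member in each of the 5 naïve mice, 1 symbol per mouse. Hk1, Atp2a2, Maoa and Nos1 each hold 84.3% or more of their group in every mouse, while Oprm1 and Oprl1 lie close together per exon length, at a log2 ratio of 0.10, but not with the longest transcript as length, at 1.56.

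Receptors of growth factors were widely expressed. Ngfr, the receptor shared by the neurotrophins, had 565, 353, 335, 548 and 277 CPM in naïve 1 to naïve 5. Per length it reached 526 TPM, while Ntrk2, the receptor of brain-derived neurotrophic factor, had 131 TPM and Ntrk3, the receptor of neurotrophin-3 on proprioceptors, 23.5 TPM. The annotated exons of Ntrk2 and Ntrk3 are long, 19292 and 30170 bases, which lowers their TPM. Without division by length, Ntrk2 had a mean of 575 CPM, above each value of Ngfr, and Ntrk3 160 CPM. The order of Ngfr and Ntrk2 thus depends on the length correction. Ret, the signaling chain for ligands of the GDNF family, had 815, 558, 571, 776 and 479.6 CPM. Of 31 receptor tyrosine kinases, 29 were expressed. Erbb3, the neuregulin receptor of Schwann cells, had 228 TPM, Fgfr1 198 TPM and Kit, the receptor of stem cell factor, 165 TPM. Egfr, the epidermal growth factor receptor, and Met, the hepatocyte growth factor receptor, had 0.58 TPM and 3.84 TPM.

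Cytokine receptor chains that signal through gp130, the product of Il6st, were prominent. Of the 34 members of the whole cytokine receptor list, which also holds chains that do not signal through gp130, 30 were expressed. Cntfr, the ciliary neurotrophic factor receptor, had 319 ± 69.2 TPM, Il6st 264 ± 23.2 TPM and Lifr, the leukemia inhibitory factor receptor, 222 ± 14.01 TPM (SD, n = 5). Il6ra, the chain that binds interleukin 6 itself, had 2.37, 8.43, 4.13, 6.58 and 3.37 CPM in naïve 1 to naïve 5, low in each mouse. Among receptors tied to itch, Il4ra had 93.3, 85.96, 86.8, 118 and 124 CPM and Il31ra 27.7, 50.3, 70.3, 106 and 90.5 CPM. Il31ra was lowest in naïve 1 and highest in naïve 4. Osmr, which pairs with it, had 128, 121, 121, 231 and 166 CPM, also highest in naïve 4. Chains of the interferon receptors lay between 43.5 TPM for Ifnar2 and 83.9 TPM for Ifnar1. Il7r, Il1rl1 and Il18r1, known from lymphocytes and mast cells, stood under 1 CPM.

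Receptors that couple to inhibitory G proteins were led by both subunits of the GABA-B receptor. Gabbr1 had 567, 485, 489.99, 592 and 388 CPM in naïve 1 to naïve 5. Gabbr2 had 332, 262, 242, 309 and 280.4 CPM. Per length they reached 285 TPM and 187 TPM, above Npy1r, a neuropeptide Y receptor, at 161 TPM and Sstr2, a somatostatin receptor, at 115 TPM. The opioid receptors were lower. Oprm1, the mu receptor, had 45.9, 55.8, 54.6, 49.7 and 72.8 CPM, and per length 30.7 TPM, with 28.6 TPM for Oprl1, the nociceptin receptor, 18.2 TPM for the delta receptor gene Oprd1 and 4.19 TPM for the kappa receptor gene Oprk1. Oprm1 was the higher of Oprm1 and Oprl1 in 2 of 5 mice, though its log2 ratio to Oprl1 was 1.56 with the longest transcript as length and 1.20 without length correction. Cnr1, the neuronal cannabinoid receptor, had 27.6 TPM, while Cnr2, the immune form, had 2 reads.

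Receptors of inflammatory mediators were uneven. Ednrb, an endothelin receptor also known from glia, had 372 ± 83.5 TPM, S1pr3, a receptor of sphingosine phosphate, 324 ± 41.9 TPM, and Lpar1, a receptor of lysophosphatidic acid known from Schwann cells, 298 ± 62.7 TPM (SD, n = 5). F2rl2, a protease receptor, had 149, 117, 109.99, 178 and 132 CPM in naïve 1 to naïve 5, whereas its relative F2rl1 had 15 reads in all. Bdkrb2, the constitutive bradykinin receptor, had 16.6, 27.2, 16.5, 35.8 and 43.3 CPM, and Bdkrb1, the inducible form, had no read. Ptgir, the prostacyclin receptor, led the prostanoid receptors at 146 TPM. The serotonin receptors Htr1b and Htr1a led the monoamine list at 44.8 TPM and 38.1 TPM, and no member of it reached 100 CPM. Of 16 pattern recognition members, 14 were expressed, with a median of 3.14 CPM. Their highest were the adaptor Myd88 at 53.04 TPM, the RNA sensor Ddx58 at 49.2 TPM and Tlr3 at 27.99 TPM.

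Mas-related receptors, which mark itch neurons and other nonpeptidergic fibers in mice, were led by Mrgprd. It had 138, 127, 124, 155 and 173 CPM in naïve 1 to naïve 5. Mrgpra3, the chloroquine receptor of itch neurons, varied more, with 60.1, 23.7, 11.2, 79.7 and 39.8 CPM. Mrgprx1 moved alongside it, with 60.1, 38.9, 34.3, 77.5 and 56.8 CPM, both highest in naïve 4 and lowest in naïve 3. Members of the Mrgpra group are near copies of each other, and reads that fit several could not be told apart here. Adhesion receptors were all expressed, 21 of 21, led by Adgrg1 at 287 TPM. Of guidance receptors 30 of 31 were expressed, led by the plexins Plxnd1 and Plxnc1 at 247 TPM and 218 TPM. Plxnd1, a semaphorin receptor, was nearly even between mice, with 414, 414, 424, 411 and 387 CPM.

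Nuclear receptors were led by the immediate early gene Nr4a1, with 372, 502, 606, 407 and 289.6 CPM in naïve 1 to naïve 5. It was highest in naïve 3 and lowest in naïve 5. Thra, a thyroid hormone receptor, followed at 274 TPM, then Nr1h2, a sterol sensor, at 138 TPM, Nr1d1 of the circadian clock at 114 TPM and Rarg, a retinoic acid receptor, at 98.04 TPM. Of the steroid receptors, Nr3c1, the glucocorticoid receptor, had 73.5 TPM and Esr1, an estrogen receptor, 3.2 TPM. Hnf4a of liver and Rorb had no read. The channels that define nociceptors were all expressed, 18 of 18. Asic3, the acid-sensing channel, had 119, 119.7, 119, 184 and 125 CPM, and Trpa1, the irritant receptor, 108, 101, 96.3, 108 and 142 CPM. Asic3 stood out in naïve 4 and Trpa1 in naïve 5.

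Enzymes of lipid synthesis stood highest among the enzyme lists. All 22 members of the cholesterol and fatty acid list were expressed, with a median of 228 TPM. Scd2 had 1688, 993, 1151, 1436 and 524 CPM in naïve 1 to naïve 5, and Scd1, its close relative, 1087, 732, 888, 974 and 452 CPM. Acly, which makes cytosolic acetyl-CoA, had 773, 565, 569.8, 691 and 403 CPM. All 3 were highest in naïve 1 and lowest in naïve 5. Fasn, fatty acid synthase, had 923, 808, 805, 869 and 698 CPM, a narrower range. Hmgcs1 of cholesterol synthesis had 388 TPM. It is also in the list of satellite glia markers, and glia make lipids for myelin, so the cells behind these levels cannot be told apart here.

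Aldoa, Ldhb and Pfkm had the highest levels per length among glycolytic genes. Pfkm, the muscle form of phosphofructokinase, had 343 TPM. Hk1, the neuronal hexokinase, had 538, 404, 426, 517 and 322 CPM and held 98.4% (lowest 97.7%, highest 99.3%) of hexokinase TPM, beside 56 reads of Hk2, the form of muscle and fat, in all libraries. Aldoa had 629 TPM and Aldoc 325 TPM. Eno2, the neuronal enolase, held 56.7% (lowest 53.9%, highest 58.4%) of its group, and its log2 ratio to Eno1 was 0.77 per exon length but 0.11 with the longest transcript as length. Ldhb had 428 TPM and Ldha 309 TPM per exon length, but Ldha was the higher when the longest transcript was the length. Gapdh had only 86.02 TPM; its many pseudogenes share its sequence, and how reads with several matches were treated is not given in the sources used here, so this level is uncertain. The same holds for Eno1, at 182 TPM. All 20 enzymes of the tricarboxylic acid cycle were expressed, between 33.7 TPM for Suclg2 and 279.6 TPM for Ogdh.

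Enzymes of transmitter metabolism fell into abundant and absent ones. Glul, glutamine synthetase of glia, had 473 ± 122 TPM (SD, n = 5). Th had 184 TPM, but Ddc, the next enzyme on the way to dopamine, had 4 reads in all, and Dbh, which makes noradrenaline, 0.269 CPM. Gad1, which makes GABA, had 17 reads, and Chat, which makes acetylcholine, had no read. Maoa held 91.1% (lowest 85.4%, highest 96.8%) of monoamine oxidase TPM. Nos1, the neuronal nitric oxide synthase, had 68, 60.01, 50.9, 72.4 and 102 CPM in naïve 1 to naïve 5 and held 90.7% (lowest 84.3%, highest 94.8%) of its group.

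Lipid mediator enzymes were led by Sgpp2, a sphingosine phosphate phosphatase, at 163 TPM and Mgll, which degrades an endocannabinoid, at 146 TPM. Both cyclooxygenases were close to the floor. Ptgs2 had 2, 13, 0, 0 and 21 reads in naïve 1 to naïve 5, and Ptgs1 had 0, 0, 4, 5 and 0 reads. With so few reads their order cannot be read. Alox5 and Alox15, the lipoxygenases of leukocytes, stood under 1 CPM. Cpe, which trims neuropeptides in secretory granules, led the processing enzymes with 372, 273, 273, 372 and 174 CPM, and Pam, which amidates them, had 101 TPM. Of the convertases, Pcsk2 had 94.6 TPM and Pcsk1 32.9 TPM.

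Signaling enzymes were broadly expressed. All 24 stress and mitogen-activated kinases passed 1 CPM. Mapk3 had 591, 337, 388, 607 and 192 CPM in naïve 1 to naïve 5, and per length 814 TPM. It was highest in naïve 4 and lowest in naïve 5. Prkcd, a protein kinase C, and Prkaca, the catalytic subunit of protein kinase A, led the second messenger kinases at 307 TPM and 303 TPM. Camk2g and Camk2a had 220.2 TPM and 208 TPM and changed order between mice. Dgkz and Dgkh led the diacylglycerol kinases at 489 TPM and 324 TPM. Plcb3, which acts below itch and pain receptors, led the phospholipases with 638, 507, 542, 782 and 411 CPM, while Plcb2 of leukocytes and taste cells had 0.485 CPM. Npr2, the guanylyl cyclase receptor for a natriuretic peptide, had 224 TPM, above the adenylyl cyclases Adcy5 at 129.8 TPM and Adcy2 at 126 TPM. In the phosphodiesterase list, Pde6d had 133 TPM and Pde11a 129 TPM. Ppp2r1a, the scaffold of a major phosphatase, and Ptprn, of secretory granules, led the phosphatase list at 421 TPM and 400.3 TPM.

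Lysosomal, antioxidant and extracellular enzymes completed the class. All 21 members of the list of lysosomal hydrolases passed 1 CPM. It was led by Psap, which encodes the saposin precursor and not a hydrolase, with 886, 485, 540.02, 838 and 273 CPM in naïve 1 to naïve 5. The cathepsins Ctsb and Ctsd followed at 388 TPM and 374 TPM. All 23 antioxidant enzymes passed it too, led by Txn1, thioredoxin, at 419 TPM and Gpx3, an extracellular glutathione peroxidase, at 408 TPM. Adam11, which lacks protease activity and helps to place potassium channels, led the metalloproteinase list at 261 TPM, and Mmp3 and Mmp9 had 0.0723 TPM and 2.12 TPM. Car11 and Car8, inactive relatives of the carbonic anhydrases, led theirs at 249 TPM and 90.98 TPM, above Car2, the active form of erythrocytes and glia, at 77.1 TPM.

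Neuropeptide precursors covered a wide range of levels. Of 26, 13 were expressed, 9 of them at 10 CPM or more and 3 at 100 CPM or more, and 6 had no read. Calca had 516, 259, 323, 506 and 166 CPM in naïve 1 to naïve 5. It was about even in naïve 1 and naïve 4, the shallowest libraries, and lowest in naïve 5. Tac1, the substance P precursor, had 337, 189, 240.2, 345 and 129 CPM. Per length, Calca stood at 912 TPM, Tac1 at 318 TPM, Nmb, neuromedin B, at 311 TPM, Calcb at 298 TPM, Adcyap1, the PACAP precursor, at 255 TPM and Gal, galanin, at 232 TPM. Nppb and Sst, peptides of a small itch population, had 45.6 TPM and 36.9 TPM. Nts, neurotensin, was raised in naïve 2, with 3.95, 24.98, 5.38, 5.85 and 10.8 CPM. Npy had 2 reads and Vip none. Calca and Calcb share much of their sequence, so a part of their reads may be split between them.

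The proteins packed with peptides in dense core vesicles were all expressed, 10 of 10. Scg2, a granin, had 623, 365, 415, 689.9 and 239 CPM in naïve 1 to naïve 5, Scg3 639.8 TPM, Vgf, a secreted peptide precursor, 238 TPM and Chga, chromogranin A, 181 TPM. Their median of 209.6 TPM was above that of the neuropeptide precursors, 5.47 TPM.

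Few growth factors and cytokines were abundant. Of 35 growth factors, 25 were expressed and 3 reached 100 CPM. Ptn, pleiotrophin, Fgf1 and Vegfa, the vascular growth factor, led at 286 TPM, 249 TPM and 249 TPM. Bdnf, a neurotrophin that nociceptors release in the cord, had 52.2, 45.4, 43.8, 69.4 and 75.6 CPM in naïve 1 to naïve 5, while Gdnf had 16 reads. Of 31 cytokines and chemokines, 19 passed 1 CPM and none passed 100. Mif, a ubiquitous cytokine, led at 305 TPM, followed by Il34, a ligand of the macrophage receptor Csf1r, at 68.97 TPM. Il34 had 25.3, 32.1, 29.4, 35.1 and 31.5 CPM. Csf1, the other ligand, had 72.7, 75.3, 64.5, 55.5 and 75.6 CPM. Il34 and Csf1 were both present in every mouse, while Tnf had 0.547 CPM and Il10 no read.

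Matrix and modulator proteins were among the highest secreted genes. Spock2, a secreted proteoglycan, had 1343, 866, 918, 1394 and 536 CPM in naïve 1 to naïve 5, and Sparcl1, a synaptic matrix protein, 641, 484, 545, 498 and 255 CPM. Fstl1, which neurons of the ganglia secrete, had 1190, 648, 738, 1163 and 395 CPM. Dkk3, a secreted modulator related to Wnt antagonists, had 307 TPM. Bcan, a proteoglycan known from glia, had 503 TPM and Nptx2, a neuronal pentraxin, 309 TPM. Among guidance ligands, 31 of 33 were expressed, led by Sema3b at 274 TPM, Rgmb at 181 TPM and Slit1 at 178 TPM, whereas Sema3a had 0.223 CPM. Of the protease inhibitors, Cst3, cystatin C, had 621 TPM and Timp2 613 TPM. Complement was sparse except for its inhibitor Serping1, at 199.8 TPM, and C4b, at 78.03 TPM. C4b had 83.8, 99.9, 134, 89.9 and 95.3 CPM, highest in naïve 3.

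Transcription factors of sensory neuron identity were clear in all mice. Prdm12, which is needed to form nociceptors, had 309, 202, 209, 292 and 162 CPM in naïve 1 to naïve 5. Tlx3 had 112, 85.6, 58.3, 111 and 71.1 CPM. Isl1 and Pou4f1, which act together in sensory neurons, had 121, 118, 106, 132 and 111 CPM and 236, 196, 170.4, 209.8 and 169 CPM. Isl1 was nearly even, whereas Prdm12 was highest in the shallow libraries. Prrxl1, also named Drg11, had 167 TPM and Klf7, a factor of sensory neuron development, 162 TPM. Runx1 of the nonpeptidergic line had 136, 161, 146, 130.1 and 186 CPM, and Runx3 of proprioceptors had 1.58, 4.22, 0, 0.731 and 1.97 CPM. Per length they had 55.7 TPM and 1.5 TPM. Neurog2, which acts in progenitors, had no read.

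Stimulus-responsive factors were high in these uninjured but dissociated cells. Fos had 472, 406, 501, 596 and 223 CPM in naïve 1 to naïve 5, Jun 327, 344, 413, 424 and 219 CPM and Egr1 407, 454, 585, 517 and 275 CPM. All 3 were present at over 200 CPM in every mouse and lowest in naïve 5. Atf3, the marker of axon injury, had 92.5, 118, 111, 181 and 95.6 CPM, highest in naïve 4. Atf4 of the stress response had 285 TPM. The part of dissociation in these levels was not tested. Jund had only 0.765 CPM; another gene on the opposite strand covers 52.6% of its exonic bases, and the strand setting of the counting is not given in the sources used here, so its level is uncertain.

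Other factor families were widely expressed. Nfe2l1 led the leucine zipper factors at 400.4 TPM, above Mafg at 187 TPM and Nfe2l2, the antioxidant regulator, at 101 TPM. Epas1, a hypoxia factor known from glia and vessels, and Srebf2, which drives cholesterol synthesis, led the helix-loop-helix factors with 639, 559, 665, 429 and 359 CPM and 516, 462, 507, 531 and 389 CPM. Stat3 and Stat6 led the Stat list at 214 TPM and 198 TPM, and Stat4 of lymphocytes had no read. Klf6 led the Krueppel-like factors at 176 TPM. Sox10, of glia, led the Sox and forkhead list at 363 TPM, above Sox2 at 153 TPM and Foxo3 at 109.9 TPM. Nfic led its list at 274 TPM. Rest, a repressor of neuronal genes, had 18.8 TPM.

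Most Hox genes, which keep a record of position along the body, were expressed at low levels. Of 33 members, 26 were expressed and none reached 100 CPM. Hoxa7 had 68, 58.7, 59.96, 65.8 and 56.8 CPM in naïve 1 to naïve 5, Hoxc6 68.2 TPM, Hoxd8 59.3 TPM, Hoxa9 56.7 TPM and Hoxa10 57.3 TPM. Hoxd10 had 3.26 TPM, and Hoxa11, Hoxc11, Hoxd11, Hoxc12, Hoxd12 and Hoxd13, at the far end of the clusters, all stood under 1 CPM. Other annotated genes on the same strand cover part of Hoxd3 and Hoxd4, over 62.3% and 52.3% of their exonic bases, which makes their levels uncertain.

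Whole gene families were counted by symbol, beside the 63.2% of all protein-coding genes that were expressed. Solute carriers lay near that share, with 251 of 361 expressed (69.5%). At 10 CPM their share was 50.7%, against 50.8% of all protein-coding genes. Per length, the 3 highest solute carriers were Slc25a4, Slc36a1, a lysosomal amino acid carrier, at 329 TPM and Slc27a1, a fatty acid carrier, at 293 TPM. Zinc finger genes with a number were expressed in 409 of 472 (86.7%), deubiquitinating Usp enzymes in 45 of 50 (90%) and mitogen-activated kinases in 41 of 43 (95.3%). Sensory families of other organs were almost silent. Olfactory receptors passed 1 CPM in 4 of 1106, vomeronasal receptors in 2 of 329 and taste receptors in 2 of 38. The highest olfactory receptor, Olfr558, had 4.74, 13.3, 16.95, 2.92 and 9.14 CPM in naïve 1 to naïve 5. It was found in every mouse, more in naïve 2 and naïve 3. Cytochrome P450 enzymes were expressed in 28 of 93 (30.1%), led by Cyp2j6 at 223 TPM, and chemokines in 15 of 40 (37.5%).

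The spread between mice was estimated as the coefficient of variation beyond counting error, the SD over the mean after removing the variance that read counting alone gives. Over 8219 genes with at least 500 reads its median was 15.1%, and the estimate was 0 in 631 genes. Where a level follows library depth, that trend is part of this spread. The median was 10.7% without naïve 1 and naïve 4, the shallowest libraries. Leaving out 1 mouse gave 11.3% to 16.97%, least without naïve 5, the deepest. The part of depth was not tested. An estimate of 0 was given wherever the variance over 5 mice was no larger than counting gives, so it does not show that spread is absent. Col1a1 had the largest, 185%, carried by naïve 4. Col1a2, its partner chain, had 200.05, 237, 299, 771 and 225 CPM in naïve 1 to naïve 5, and 69.2%, also raised in naïve 4. Adgrf5, an adhesion receptor, had 28.5, 31.5, 19.8, 54.1 and 102 CPM, highest in naïve 5. Caln1, a calcium binding protein, had 14.2, 49.6, 20.3, 8.04 and 41.6 CPM, and Lgi3, a secreted synaptic protein, 23.7, 60.3, 14.9, 20.5 and 45.4 CPM. Both were highest in naïve 2. Ltbp2 and Col7a1, matrix genes, had 17.4, 36.7, 73.2, 22.7 and 56.9 CPM and 7.91, 33.1, 41.8, 15.3 and 46.1 CPM, lowest in naïve 1. H2-Q4, a class I antigen gene with near copies, had 56.9%, Mrgpra3 63.2% and CT010467.1, annotated as ribosomal RNA, 58.02%.

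At the other end, the values of well counted genes were almost identical. Add2, a membrane skeleton protein, had 474, 463, 445, 449 and 453 CPM in naïve 1 to naïve 5, a coefficient of 2.55%. Trak1, which ties mitochondria to motors, had 302, 309.8, 317, 319 and 319.7 CPM, a coefficient of 2.41%. Plxnd1, Zbtb4, Eif4g3, Larp1, Rbfox2, Clasp1, Eif3a and 2610507B11Rik completed the 10 shown, with coefficients of 3.06% to 3.92%. The 10 were those with the most reads among the genes whose estimate beyond counting error was 0. These genes lay between 58.5 and 247 TPM.

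**Figure D5:**
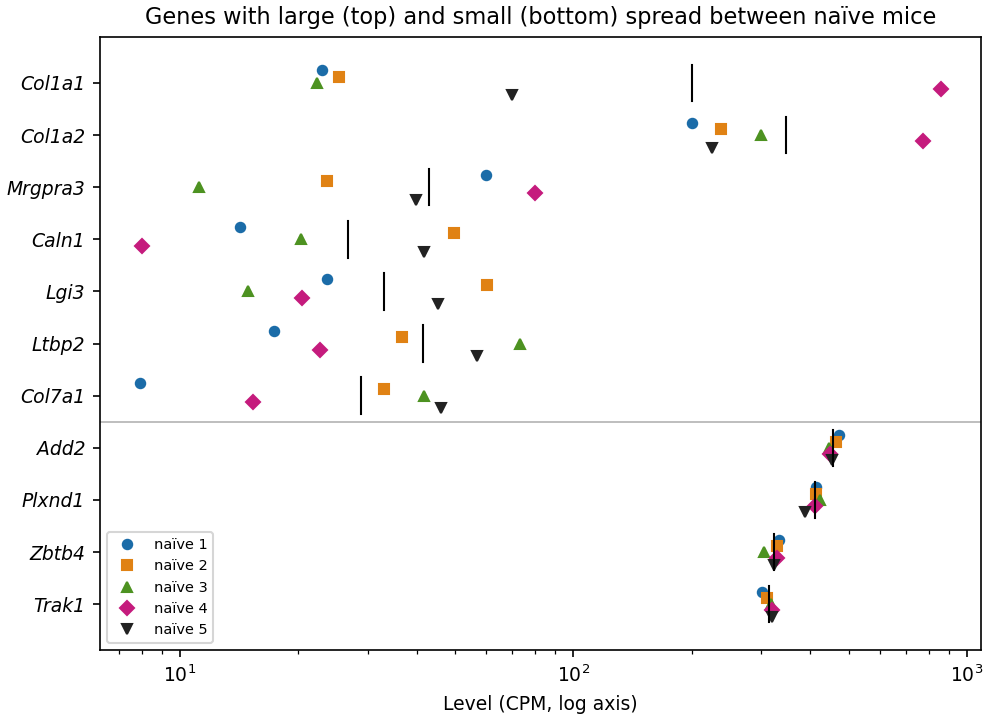
Level (CPM, log axis) in each naïve mouse of 7 genes with large and 4 genes with small spread between mice, with the mean as a bar. Col1a1 and Col1a2 are set apart by naïve 4, at 859 and 771 CPM, whereas the 5 values of Add2 lie between 445 and 474 CPM.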

How the data were processed

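RNA of sorted, backlabeled sensory neurons was sequenced as single ends of 75 bases on 1 run, and the 5 naïve libraries were used here. Per the submitters' processing notes and the study's methods, the authors aligned reads with HISAT2 to mm10 and counted them per gene with HTSeq; the group comparisons they made are not used here. The deposited signal values carry the label RPKM in the file headers. In each naïve library all values were whole multiples of 1 step (0 exceptions at a relative tolerance of 1e-06), from 0.141 to 0.791 CPM per read. So whole reads per gene were recovered, and the values were treated as CPM, not divided by length. The authors' group means were not used.

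Of 54232 lines, 27 with a number as name (at most 0.21% of reads) and 97 repeats of a symbol were left out. GENCODE release M21 (GRCm38) gave lengths for 53106 of 54108 symbols, 116 by an older name; TPM uses the union of exons. The annotation used for counting, its strand setting and the treatment of duplicate and multiply mapped reads are not given in the sources used here.

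No test was run, since no groups are compared. Errors are SDs over 5 mice, and cover mice, library preparation and sequencing depth together. In the most abundant short genes, whose levels were lower in deeper libraries, the SD includes that trend and is not a measure of mice alone. Genes named are the markers, the 25 highest per length, the 10 with most reads, up to 5 of each list and known members near 0, members of paralog groups, up to 3 of each symbol family, the 10 largest and smallest spreads and list members with an outlying value, and some genes that this rule names are not reported here. Of the 631 genes tied at an estimated spread of 0, those with the most reads were named, an order chosen after the values were seen. The members and lists were chosen with earlier results of these data known. Alternatives were thresholds of 5 and 10 CPM, other scalings and lengths, thinning to the shallowest depth, and leaving out libraries. Python 3.11.15, numpy 2.4.6 and pandas 2.3.3 were used, and the scripts were tested on simulated data.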

Additional observations from a re-analysis of the deposited data

Results flagged for a closer look

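The named genes were searched for a mouse whose value stood apart from the other 4, that is, whose gap to the nearest value took up more than 0.71 of the whole range. Chance alone gives such a value in about 1 in 20 groups of 5, and gene after gene in 1 mouse is not independent. Of 1359 genes, 85 had one, 24 in naïve 1, 9 in naïve 2, 10 in naïve 3, 18 in naïve 4 and 24 in naïve 5. Of these, 35 had a mean under 1 CPM, where the value apart rests on few reads. A gene with reads in 1 library only stands apart by construction, as 24 did, so the rate given for chance does not apply to such genes. The 50 whose mean reached 1 CPM made up 4.16% of the 1202 searched genes at that level, no more than 1 in 20. Naïve 1 and naïve 4 were the shallowest libraries and naïve 5 the deepest, and the part of depth in these counts was not tested. Values below are CPM in the mouse that stood apart, with the range of the other 4 mice.

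In naïve 1, Hmox1 (51.4 CPM, others 36.8 to 40.2), Lyz2 (149 CPM, others 1.97 to 13.9) and Ctsk (57.7 CPM, others 21.9 to 32.2) were higher. Spp1 (84.6 CPM, others 12.4 to 31.8), Cd68 (17.4 CPM, others 1.46 to 4.13) and Il1b (19.8 CPM, others 0.827 to 5.12) were also higher. Ptprc (11.1 CPM, others 0.973 to 2.07), Mmp9 (7.12 CPM, others 0 to 0.973) and C3 (4.74 CPM, others 0.413 to 1.46) were also higher. Hk3 (3.95 CPM, others 0.281 to 0.827) was also higher. In naïve 1, Nfe2l2 (74.3 CPM, others 88.4 to 93.04), S1pr1 (45.1 CPM, others 60.6 to 63.3) and Tcf3 (35.6 CPM, others 58.5 to 67.6) were lower. Ece2 (10.3 CPM, others 21.2 to 24.8) and Napepld (11.1 CPM, others 20.4 to 23.98) were also lower. Pspn at 3.16 CPM, Slc6a4 at 3.95 CPM, Ucn at 3.16 CPM, Cysltr1 at 1.58 CPM and Tlr8 at 1.58 CPM stood above 0.827 CPM, the highest value of any of them in the other mice. Csf2 at 1.58 CPM, Gad2 at 0.791 CPM, Nos2 at 0.791 CPM and Il18r1 at 0.791 CPM had no read in any other mouse.

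In naïve 2, Hoxa11 at 0.649 CPM, Alox15 at 0.649 CPM, Tslp at 0.649 CPM, Cck at 0.649 CPM and C1ql1 at 0.324 CPM stood above 0.141 CPM, the highest value of any of them in the other mice. C1ql2 at 0.324 CPM, Ntf5 at 0.324 CPM and Il1rl1 at 0.324 CPM had no read in any other mouse. Tph1, under 1 CPM on average, had 0 CPM against 0.703 to 0.827 in the other mice.

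In naïve 3, Erbb3 (437 CPM, others 260.2 to 311), Sema4c (158 CPM, others 99.6 to 115) and Slc25a27 (120.3 CPM, others 93.3 to 95.9) were higher. Ctgf (7.44 CPM, others 0 to 1.55) and Cx3cr1 (4.55 CPM, others 0 to 0.703) were also higher. In naïve 3, Fgf7 (2.48 CPM, others 4.22 to 4.74) was lower. Ttr at 1.24 CPM, Nr5a2 at 0.827 CPM, Cldn5 at 0.413 CPM and Hbb-bs at 0.413 CPM stood above 0.324 CPM, the highest value of any of them in the other mice.

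In naïve 4, Col1a2 (771 CPM, others 200.05 to 299), Col1a1 (859 CPM, others 22.3 to 69.7) and Mapk11 (191 CPM, others 132 to 145) were higher. Asic3 (184 CPM, others 119 to 125), Map2k2 (151 CPM, others 112 to 120.2) and Atf3 (181 CPM, others 92.5 to 118) were also higher. Xbp1 (112 CPM, others 82.1 to 88.1), Car3 (8.77 CPM, others 0.324 to 2.07) and Sp7 (5.85 CPM, others 0.649 to 1.24) were also higher. In naïve 4, Adcy2 (102 CPM, others 122 to 129), Rarg (65.8 CPM, others 97.6 to 108) and Gpr162 (50.4 CPM, others 86.98 to 99.1) were lower. Ptges (17.5 CPM, others 43.4 to 53.8), Car5b (16.8 CPM, others 44.2 to 47.4) and Slc2a8 (34.4 CPM, others 38.9 to 40.5) were also lower. Unc5a (19 CPM, others 34.7 to 37.1) and Slc1a2 (8.04 CPM, others 22.9 to 26.9) were also lower. Mef2b, under 1 CPM on average, had 0 CPM against 0.649 to 0.844 in the other mice.

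In naïve 5, Trpa1 (142 CPM, others 96.3 to 108), Pcsk1 (57.9 CPM, others 36.01 to 40.2) and Ptger4 (40.2 CPM, others 23.4 to 26.1) were higher. Slc9a7 (44.4 CPM, others 21.2 to 27.7), Bcl11b (47.5 CPM, others 19.7 to 27.2) and Abcc8 (33.2 CPM, others 15.3 to 20.5) were also higher. Pde8a (32.6 CPM, others 13.9 to 18.2), Htr2a (22.6 CPM, others 8.68 to 8.77) and Cpm (6.89 CPM, others 0 to 1.46) were also higher. In naïve 5, Id3 (77.05 CPM, others 119.9 to 128), Car11 (96.6 CPM, others 111 to 114) and Ptges3 (59.3 CPM, others 72.8 to 75.9) were lower. Htr2b at 1.55 CPM, Artn at 1.41 CPM, Hoxc11 at 1.41 CPM, Clcf1 at 0.562 CPM and Rbp4 at 0.562 CPM stood above 0.413 CPM, the highest value of any of them in the other mice. Drd5 at 0.281 CPM, Bmp8b at 0.141 CPM, Alox5 at 0.141 CPM, Nms at 0.141 CPM and Mmp3 at 0.141 CPM had no read in any other mouse. Pklr at 0.141 CPM and Robo3 at 0.141 CPM had no read in any other mouse.

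Of the 10 macrophage markers, Lyz2, Cd68 and Ptprc stood apart in naïve 1, Cx3cr1 in naïve 3 and the other 6 in no mouse. Of the 10 fibroblast and mural markers, only Col1a1 and Col1a2 stood apart, in naïve 4. The part of such cells in the other values was not tested.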

How the results depend on the processing

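No paired analysis was possible because no result comes from a test and only 1 group is described. The number of expressed genes was 15753 at a mean of 1 CPM, 12588 at 5 CPM, 11349 at 10 CPM, 13465 at 1 CPM in each library and 17113 at 10 reads in all. Leaving out each mouse in turn gave 15588 to 15852, and without naïve 1 and naïve 4 together it was 15975. Genes with a read numbered 17030 to 24031 per library, and 17030 to 18633 after thinning to the shallowest depth. Of the 25 genes highest per length, 17 remained among the 25 with the longest transcript as length, 22 to 25 with each mouse left out and 20 without naïve 1 and naïve 4. The median spread was 15.1% in the 5 libraries, 13.5% after median-ratio rescaling, 10.7% without naïve 1 and naïve 4 and 11.3% to 16.97% with each mouse left out, and leaving mice out of these 2 results was in part added after the data were seen. Of 1150 genes at 1 CPM or more in the lists or among those highest by TPM or reads, the level moved by over 1.5 times in 35 as a median, in 37 without naïve 1 and naïve 4, in 2 to 11 with 1 mouse left out and in none under the 2 other scalings. Of the genes described, those so moved by 1 mouse had these mean CPM: without naïve 1 C3 0.947, Cd68 3.04, Hk3 0.541, Il1b 2.26, Lyz2 7.54, Mmp9 0.417, Ptprc 1.48 and Spp1 19.5, without naïve 2 Nts 6.5, Ptgs2 1.13, Pvalb 2.32, Runx3 1.07 and Slc17a7 11.04, without naïve 3 Ctgf 0.909 and Cx3cr1 0.257, without naïve 4 C1qc 1.85, Car3 1.04, Col1a1 35.1, Ptgs1 0.413 and Sp7 0.916, and without naïve 5 Cpm 0.897, Egfr 0.917 and Esr1 5.53. The order of paralogs was given as the log2 ratio of TPM of the first to the second, and a negative value means that it turned round; the cyclooxygenases have libraries without reads and got no ratio. With the longest transcript as length it was -0.13 for Ldhb to Ldha and -0.51 for Atp2b4 to Atp2b1. Without length correction it was -0.61 for Ldhb to Ldha, -0.87 for Slc2a1 to Slc2a3 and -0.14 for Camk2g to Camk2a. In naïve 1 alone it was -0.22 for Ifnar1 to Ifngr2 and -0.048 for Oprm1 to Oprl1. In naïve 2 alone it was -0.15 for Oprm1 to Oprl1. In naïve 4 alone it was -0.49 for Slc2a1 to Slc2a3, -0.011 for Camk2g to Camk2a and -0.19 for Ifnar1 to Ifngr2. In naïve 5 alone it was -0.11 for Slc2a1 to Slc2a3, -0.0037 for Camk2g to Camk2a and -0.065 for Oprm1 to Oprl1. Another 26 values of these ratios moved by more than the SD between mice without turning round. The cause was not tested. A read equals up to 0.791 CPM, so levels under 1 CPM rest on few reads.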
